A study of Mus musculus with 10 samples.

Results

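The genes described here encode the protein components of the cytosolic ribosome in mouse tumour-associated macrophages. They were taken by symbol: every protein-coding gene named Rpl or Rps followed by a digit, with Rplp0, Rplp1, Rplp2 and Rpsa, leaving out pseudogene symbols, the S6 kinases and the mitochondrial Mrp genes. This gave 89 genes of the 36528 gene identifiers measured. Of these, 77 were core ribosomal proteins, with 43 in the large subunit, 3 in the P stalk of the large subunit and 31 in the small subunit. The remaining 12 were 7 paralogs of core genes, 4 retroposed genes that are annotated as coding, and Rps19bp1, which encodes a protein that binds Rps19 and is not itself a ribosomal protein. Another 6 matching symbols are not annotated as protein-coding and were left out. The symbol rule itself uses no measured value, but the group was chosen with earlier results of these data known.

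The small ribosomal subunit reads the mRNA, and the large subunit joins amino acids into the growing chain. The P stalk, made of Rplp0 with the acidic proteins Rplp1 and Rplp2, recruits the elongation factors. Most mRNAs for these proteins begin with a C followed by a run of pyrimidines, the 5′ terminal oligopyrimidine (TOP) tract, and the kinase complex mTORC1 controls their translation through this tract and the protein Larp1. Their mRNA levels are usually high and even across cell types, and each ribosome holds the core proteins in near equal number. The genes have given rise to many processed pseudogenes in mammalian genomes, so short reads from them often match more than a single place.

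The macrophages were purified from MC-38 colon carcinoma tumours grown in C57Bl/6 mice. In 5 libraries the mice had been treated with anti-MerTK, an antibody against a receptor by which macrophages engulf dying cells, and in the other 5 with anti-gp120, an antibody against a viral envelope protein. The labels give no replicate numbers, so libraries are numbered within a group in the order of their accessions, and a number pairs nothing across groups. Samples were taken 24 h after treatment, and polyadenylated RNA was sequenced. How the cells were purified, and whether each library came from a different mouse, is not given in the labels, so the p-values speak only of the spread among these libraries, which may be technical.

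The libraries held between 33159858 and 46108687 reads counted in genes, and 13588 genes passed the filter on low counts. All 12 macrophage markers examined passed it, with a summed level of 31810 to 38920 CPM (reads scaled to library size) in the anti-MerTK libraries and 30130 to 41560 CPM in the anti-gp120 libraries. Of 10 monocyte markers, 10 had a positive fold change and 2 rose, where 49.0% and 1.85% of all tested genes did. The rises were in Plac8, with a log2 fold change of 2.37 (SE 0.50, adjusted p = 0.0346), and Ms4a4c, with 1.15 (SE 0.17, adjusted p = 0.0103, edgeR quasi-likelihood test). The summed monocyte markers spanned 1646 to 2449 CPM in the anti-MerTK libraries and 908 to 1667 CPM in the anti-gp120 libraries. Of the other lists, Cdh1, the 1 tested of 6 epithelial markers, fell. It had 28.2 ± 3.66 CPM after anti-MerTK, against 46.5 ± 10.01 CPM after anti-gp120 (adjusted p = 0.0244, edgeR). The other 5 epithelial markers averaged under 1 CPM, so Cdh1 alone gives no measure of epithelial cells. Markers that failed the filter on low counts were not tested. The filter left 3 of 8 neutrophil, 5 of 8 dendritic cell, 3 of 10 T and NK cell and 2 of 6 B cell markers. It also left 5 of 6 fibroblast, 4 of 6 endothelial and 8 of 8 cell division markers. Among these tested markers 0 passed. With the monocyte mean as a covariate, the adjusted p was 0.165 for Plac8, 0.0680 for Ms4a4c and 0.232 for Cdh1 (edgeR). Plac8 and Ms4a4c are themselves part of the monocyte mean, so this fit cannot test them apart from it. That mean was 4.56 ± 0.521 log2 CPM after anti-MerTK and 3.75 ± 0.472 log2 CPM after anti-gp120, so in this fit the covariate and the treatment cannot be fully told apart. Few genes of any kind were called in this fit, so a call lost in it, here or below, is not particular to a gene. Without single libraries, Plac8 lost its call for anti-MerTK replicates 1, 2 and 3 and anti-gp120 replicates 2, 3 and 4 (adjusted p of 0.0566 to 0.109), and Cdh1 for anti-MerTK replicates 1, 2 and 3 and anti-gp120 replicate 2 (0.0510 to 0.0708, edgeR). The part of these cell types in the ribosomal protein values was not tested, apart from a fit with the monocyte markers given with the library values. In bulk RNA, fewer cells of a type and less RNA per cell cannot be told apart. Mertk, whose protein the antibody binds, had a log2 fold change of -0.21 (SE 0.10, adjusted p = 0.263), and a transcript level gives no measure of blocked receptor.

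The deposited counts hold reads that aligned uniquely, so a read that matches a gene and its copy equally well is in neither count. The opening coding sequences of the Rps27 family show such a case. Rps27 is a small-subunit protein encoded on GRCm38 chromosome 3 (90212667 to 90213648, minus strand). Rps27rt is an intronless copy on chromosome 9 (114982366 to 114982739, minus strand), and Rps27l is a paralog with introns, also on chromosome 9 (66944624 to 66949522, plus strand). The first 120 coding bases are given below from GENCODE M21 transcripts, 5′ to 3′, with capitals at the bases that differ from Rps27.
Rps27: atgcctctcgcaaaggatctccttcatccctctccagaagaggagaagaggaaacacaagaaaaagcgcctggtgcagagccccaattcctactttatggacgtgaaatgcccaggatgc
Rps27rt: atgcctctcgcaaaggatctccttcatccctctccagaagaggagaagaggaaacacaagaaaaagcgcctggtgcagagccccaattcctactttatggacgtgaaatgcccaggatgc
Rps27l: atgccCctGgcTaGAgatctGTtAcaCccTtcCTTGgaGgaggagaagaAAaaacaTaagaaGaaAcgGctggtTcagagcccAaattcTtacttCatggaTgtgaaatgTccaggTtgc
The coding sequences of Rps27 and Rps27rt were identical over all 255 bases. Rps27l differed from Rps27 at 61 of the 255 bases, 28 of them in the stretch shown, and was 76.1% identical.

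Rpl38, a large-subunit protein known in mice for a role in the translation of Hox mRNAs, has intronless copies that are annotated as pseudogenes. Its gene lies on chromosome 11 (114667818 to 114672333, plus strand), and the copies shown lie on chromosome 6 (140746960 to 140747172, minus strand) and chromosome 4 (138425788 to 138426002, plus strand). Capitals mark bases that differ from Rpl38.
Rpl38: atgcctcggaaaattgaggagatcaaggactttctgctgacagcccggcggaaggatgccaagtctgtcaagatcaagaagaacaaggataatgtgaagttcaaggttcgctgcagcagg
Rpl38-ps2: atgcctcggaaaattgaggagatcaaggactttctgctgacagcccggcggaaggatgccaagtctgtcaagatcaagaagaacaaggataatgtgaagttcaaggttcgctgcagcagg
Rpl38-ps1: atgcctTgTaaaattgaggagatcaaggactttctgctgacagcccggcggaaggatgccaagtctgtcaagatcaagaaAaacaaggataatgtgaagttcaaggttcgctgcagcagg
Rpl38-ps2 matched all 213 coding bases of Rpl38, so no read that lies within that stretch has a unique place. Rpl38-ps1 differed at 3 of the 120 bases shown. Among the 77 core genes, 73 had at least 1 annotated pseudogene copy, taken as a match of at least 90% identity over at least 80% of the coding sequence. The median was 9 copies and the highest was 76, for Rpl21, with 957 matches summed over the core genes.

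The counted levels of the core genes were far from even. Per gene length, as RPKM, which divides reads by gene length and library size, averaged over the 10 libraries, they ran from 0.574 for Rpl23a to 922 for Rpl8, a ratio of 1607. Rpl8, a protein near the catalytic centre of the large subunit, had 910 ± 64.4 RPKM in the anti-MerTK and 933 ± 36.3 RPKM in the anti-gp120 libraries (SD, 5 libraries each). The P stalk protein Rplp1 had 706 RPKM over all libraries, and the small-subunit protein Rps3 had 611 RPKM. At the low end, Rpl23a, which lies at the exit of the nascent chain, had 7 to 26 reads in a library, and Rpl38 had 0.764 RPKM with 10 to 38 reads. A mean below 50 reads per library was found for 10 core genes and one above 10000 reads for 11. The 10 members with most reads held 69.8% of all reads in the 89 genes.

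The level of a core gene ran with how much of its transcript is found in no other gene. A share of unique sequence was computed as the percentage of 50-base windows of the gene's main transcript that occur in no transcript of another gene on either strand. This share ran from 1.4% for Rps27 to 100%, with a median of 38.8%. The 26 core genes with at least 50% unique windows had a median of 105 RPKM, against 6.45 RPKM for the 51 genes with less. Across the 77 core genes, Spearman's rho between RPKM and the unique share was 0.576 with windows of 50 bases and 0.639 with windows of 75 bases, and rho between RPKM and the number of pseudogene copies was -0.440. Genes are not independent replicates and share these 10 libraries, so the values are a description. By number of copies, the median was 671 RPKM for the 4 core genes with none, 173 RPKM for the 14 with 1 to 4, 5.87 RPKM for the 23 with 5 to 9, and 7.60 RPKM for the 36 with 10 or more. The read length is not given in the sources used here, so the window lengths stand in for it. A level in these counts is therefore a level of uniquely aligned reads. Fold changes between the groups compare a gene with itself, but a gene with few unique bases rests on few reads and may hold reads of its copies.

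**Figure D1:**
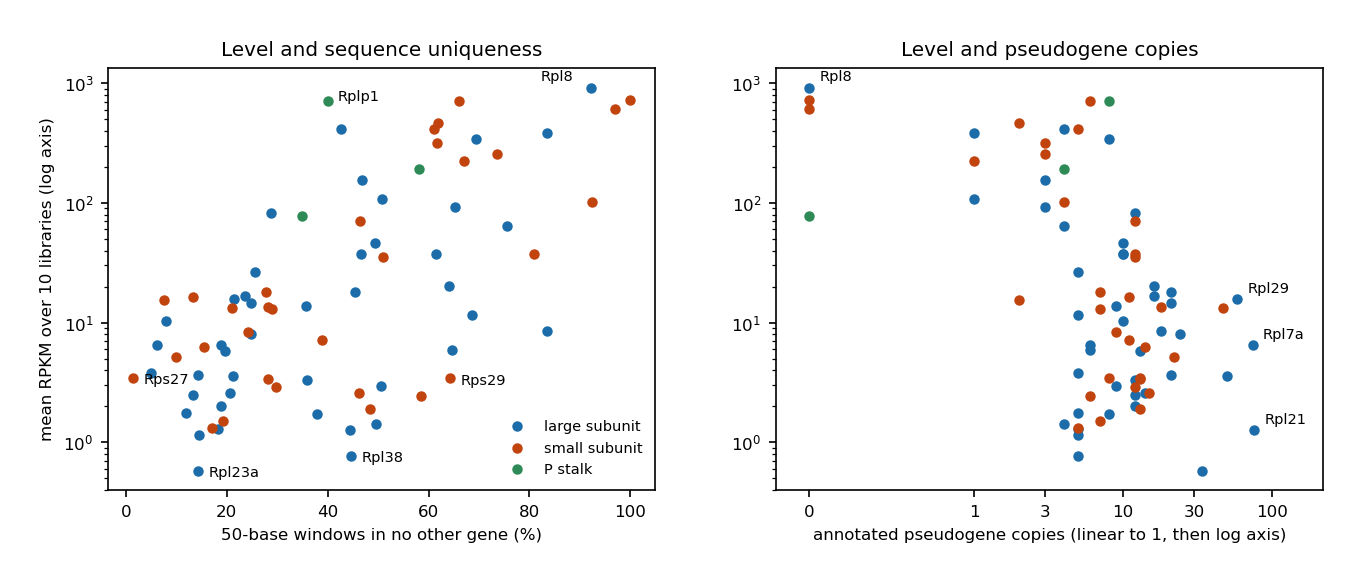
Mean RPKM of the 77 core ribosomal protein genes over the 10 libraries (log axis), against the percentage of 50-base windows found in no other gene's transcript (left) and against the number of annotated pseudogene copies (right, linear to 1 and then logarithmic). Each point is a gene, coloured by subunit; Rpl8 at 922 RPKM has no copy, and Rpl21, with 76 copies, has 1.26 RPKM.

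The comparison asks whether ribosomal protein transcripts differed in macrophages 24 h after the antibody against MerTK. No member passed the test in either direction. Of the 89 genes, 87 passed the filter on low counts. Among them 0 were higher and 0 were lower after anti-MerTK by edgeR's quasi-likelihood test at a Benjamini-Hochberg adjusted p under 0.05. Of all 13588 tested genes, 438 passed (3.22%), with 251 higher (1.85%) and 187 lower (1.38%). At an unadjusted p under 0.05, 6 members passed, against 2840 of all genes (20.9%). Rps19bp1 was the sole higher one, where 10.1% of all genes were higher at that level, and the 5 lower ones were Rpl4, Rpl5, Rpl23, Rps3a1 and Rps4x, where 10.8% of all genes were lower. DESeq2 called 1 member higher, against 4.68% of its 12793 genes, and limma-voom with quality weights called 1 higher, against 3.76% of all genes. It was Rps19bp1 in both.

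The estimates leaned to the low side without single genes passing. The fold change was negative for 69 of the 87 tested members and for 6934 of all 13588 genes (51.0%). The median log2 fold change of the members was -0.09, against -0.0059 over all genes. Among the core genes 64 of 77 were negative, with a median fold of 0.939. Among the 40 core genes with a mean of at least 10 CPM, 38 were negative. Among the 26 with at least 50% unique windows, 25 were negative with a median log2 fold change of -0.14. Among the 51 with less, 39 were negative with a median of -0.07. All members come from the same 10 libraries, so the number of genes on a side says nothing of how often new libraries would give that side.

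Gene by gene, the intervals of this fit bound the change in uniquely aligned reads, without correction for the number of genes. The 95% interval of the fold change lay within 1.5-fold in either direction for 59 of the 77 core genes and within 2-fold for 76. The exception was Rpl38, whose interval reached 1.25 on the log2 scale. The SE of the log2 fold change had a median of 0.12 over the core genes, the lowest being 0.07 for Rpl8 and the highest 0.34 for Rpl38. The whole anti-MerTK group was under the anti-gp120 mean in 12 core genes and over it in 0. The share of all tested genes that did so was not computed, and the core genes share the same libraries. These counts are therefore no sign of a difference. For 0 core genes were the groups free of overlap, against 811 of all tested genes (5.97%).

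**Figure D2:**
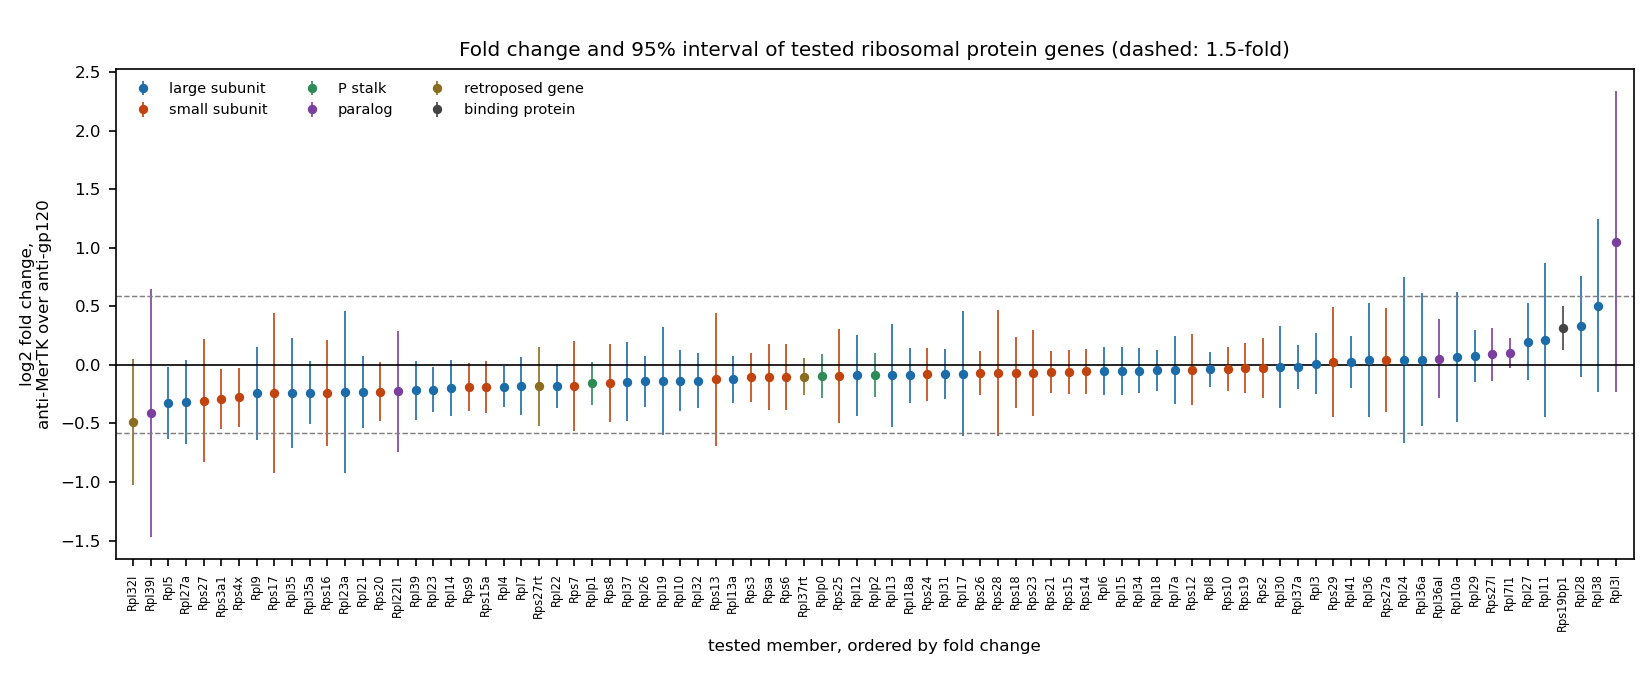
Log2 fold change, anti-MerTK over anti-gp120, of 85 of the 87 tested genes with its 95% interval, ordered by fold change and coloured by class; dashed lines mark 1.5-fold. Most points lie just under 0, and the widest intervals belong to genes of few reads such as Rpl3l, Rpl39l and Rpl38.

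In the small subunit 29 of 31 genes had a negative estimate, with a median log2 fold change of -0.10 and a range of -0.31 to 0.04. Rps3, which lies where the mRNA enters the ribosome and had the most reads of all members, had 1056, 924, 1165, 1077 and 1281 CPM in the anti-MerTK libraries and 1141, 1116, 1375, 1115 and 1182 CPM in the anti-gp120 libraries. The groups overlapped, with the lowest value in anti-MerTK replicate 2 and the highest in anti-gp120 replicate 3. The log2 fold change of Rps3 was -0.11 (SE 0.10, adjusted p = 0.563, edgeR).

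Members had short transcripts, with a median of 906 bases against 3069 over the genes tested. Offsets for transcript length and GC content moved the members' median log2 fold change to -0.17. With them 2 members passed as lower in edgeR, where 1.03% of the 11909 genes with a length and GC value did.

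Rps4x, the X-linked small-subunit gene, had 13.2, 12.8, 15.8, 14.1 and 15.99 CPM after anti-MerTK and 16.5, 15.8, 23.1, 15.96 and 15.9 CPM after anti-gp120. A single anti-gp120 library, replicate 3, stood above all the others. The log2 fold change was -0.28 (SE 0.12, unadjusted p = 0.0349, adjusted p = 0.200, edgeR). Rps4l, a copy of Rps4x that is not annotated as protein-coding, ran the other way at 6.73 ± 1.01 CPM after anti-MerTK and 5.08 ± 1.15 CPM after anti-gp120 (adjusted p = 0.167, edgeR). Rps3a1 averaged 10.8 ± 0.883 CPM after anti-MerTK and 13.3 ± 2.46 CPM after anti-gp120, with a log2 fold change of -0.30 (adjusted p = 0.177, edgeR). Rps6, the substrate of the S6 kinases, had 8.36 ± 1.13 CPM after anti-MerTK and 8.99 ± 1.44 CPM after anti-gp120, and a log2 fold change of -0.10 (SE 0.13).

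In the large subunit 32 of 43 genes had a negative estimate, with a median log2 fold change of -0.09 and a range of -0.33 to 0.51. Rpl8 had 778, 709, 839, 754 and 825 CPM after anti-MerTK and 777, 792, 848, 792 and 798 CPM after anti-gp120. The anti-MerTK values enclosed nearly the whole anti-gp120 range, and the log2 fold change was -0.04 (SE 0.07), with a 95% interval of -0.19 to 0.11. Rpl4, which lines the tunnel of the nascent chain, had 499, 423, 536, 511 and 561 CPM after anti-MerTK and 546, 577, 607, 580 and 572 CPM after anti-gp120. Only the highest anti-MerTK library reached into the anti-gp120 range, and the log2 fold change was -0.19 (SE 0.08, unadjusted p = 0.0367, adjusted p = 0.205, edgeR).

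Rpl5 had the lowest estimate among core genes. Free Rpl5 and Rpl11 bind Mdm2 and thereby hold back the breakdown of p53. Rpl5 gave 10.4, 9.44, 12.6, 11.01 and 14.9 CPM after anti-MerTK and 14.1, 12.9, 18.9, 14.9 and 12.3 CPM after anti-gp120, with a log2 fold change of -0.33 (SE 0.14, unadjusted p = 0.0391, adjusted p = 0.211, edgeR). The groups overlapped in anti-MerTK replicates 3 and 5. Rpl11 lay on the other side, at 1.35 ± 0.544 CPM after anti-MerTK and 1.17 ± 0.385 CPM after anti-gp120 (log2 fold change 0.21, SE 0.30), on 31 to 77 reads per library. Rpl23, which contacts the initiation factor Eif6 at the face of the large subunit, averaged 91.2 ± 9.87 CPM after anti-MerTK and 106 ± 9.98 CPM after anti-gp120, at a log2 fold change of -0.21 (adjusted p = 0.190, edgeR).

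The 3 highest estimates of the large subunit, those of Rpl38, Rpl28 and Rpl11, came from genes with few reads. Rpl38 had 0.420, 0.339, 0.618, 0.634 and 1.06 CPM after anti-MerTK and 0.357, 0.552, 0.579, 0.433 and 0.245 CPM after anti-gp120, and a log2 fold change of 0.51 (SE 0.34, adjusted p = 0.423, edgeR). The highest value came from anti-MerTK replicate 5, and without it the estimate was 0.23. Rpl28 averaged 0.923 ± 0.137 CPM after anti-MerTK and 0.731 ± 0.115 CPM after anti-gp120 (log2 fold change 0.33, SE 0.20, adjusted p = 0.367, edgeR), on 19 to 43 reads. Rpl3, which binds near the catalytic centre, was close to 0 at 0.0092 (SE 0.12).

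The P stalk genes all had small negative estimates. Rplp0 had 246, 209, 266, 244 and 283 CPM after anti-MerTK and 254, 256, 295, 248 and 280 CPM after anti-gp120, at a log2 fold change of -0.09 (SE 0.09). Rplp1 had 307, 274, 327, 290 and 357 CPM after anti-MerTK and 330, 326, 376, 329 and 375 CPM after anti-gp120, at -0.16 (SE 0.08, adjusted p = 0.301, edgeR). Rplp2 had 43.4, 41.8, 49.7, 48.3 and 55.5 CPM after anti-MerTK and 54.4, 47.9, 45.5, 51.6 and 54.6 CPM after anti-gp120, at -0.09 (SE 0.09). Within each gene the groups overlapped, and replicate 2 was the lowest of the anti-MerTK libraries in all 3 genes. With the length and GC offsets Rplp1 passed as lower, at -0.28 (adjusted p = 0.0398, edgeR).

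**Figure D3:**
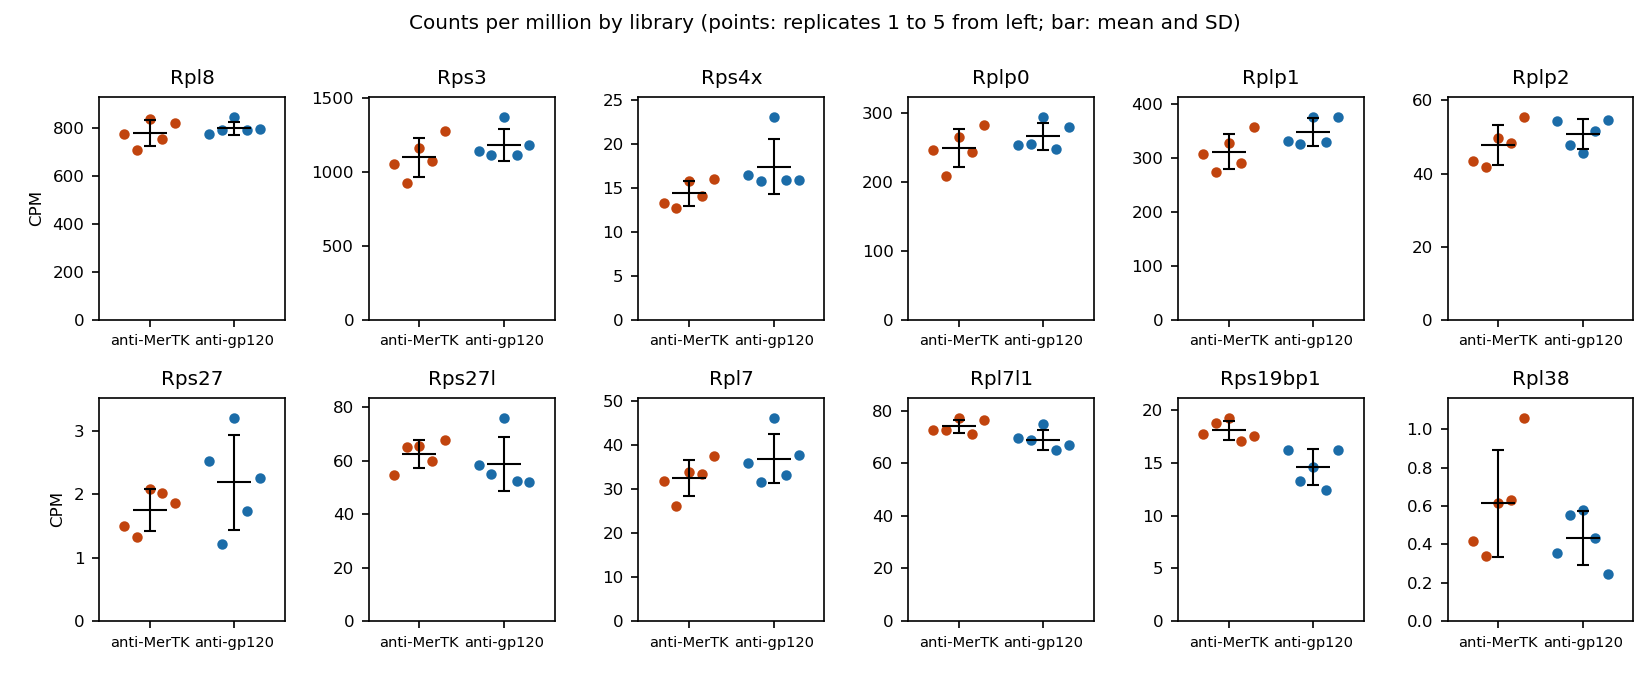
CPM of 12 genes in each library, with replicates 1 to 5 from left to right, anti-MerTK left and anti-gp120 right of each panel, and the mean and SD as bars. The groups overlap in every panel but that of Rps19bp1, where the anti-MerTK libraries span 17.1 to 19.3 CPM and the anti-gp120 libraries 12.5 to 16.3 CPM.

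Rps19bp1, whose product binds the small-subunit protein Rps19 and the deacetylase Sirt1, was the sole tested member whose groups did not overlap. It had 17.8, 18.8, 19.3, 17.1 and 17.6 CPM after anti-MerTK and 16.3, 13.3, 14.6, 12.5 and 16.2 CPM after anti-gp120. Every anti-MerTK library was above every anti-gp120 library. The log2 fold change was 0.31 (SE 0.09, 95% interval 0.12 to 0.50), which missed the threshold in edgeR (adjusted p = 0.0741) and passed it in DESeq2 (adjusted p = 0.0227) and limma-voom (adjusted p = 0.0318). Its transcript was wholly unique, with no pseudogene copy. Rps19 itself had 68.3 ± 10.4 CPM after anti-MerTK and 69.7 ± 5.08 CPM after anti-gp120 (log2 fold change -0.03, SE 0.10).

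Paralogs can replace a core protein in the ribosome or act elsewhere, and 3 of the 7 are known chiefly from other tissues. Rpl10l, a testis paralog of Rpl10, had 0 reads in all 10 libraries. A count of 0 allows up to 3 reads, which is 0.0905 CPM in the smallest library. Rpl39l, another gene known from testis, had 0.608 ± 0.340 CPM after anti-MerTK and 0.803 ± 0.525 CPM after anti-gp120, on 10 to 50 reads. Rpl3l, the striated muscle counterpart of Rpl3, had 0 to 22 reads per library and the highest estimate of all members, 1.05, with an SE of 0.59 (adjusted p = 0.331, edgeR). One retroposed gene, Rps23rg1, had 0 to 6 reads and was not tested.

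Per gene length, Rps27l at 101 RPKM and Rpl7l1 at 27.5 RPKM were the paralogs of highest level, while Rpl3l had 0.149 RPKM and Rpl39l 0.825 RPKM. Rpl7l1 had 72.8, 72.5, 77.1, 71.2 and 76.3 CPM after anti-MerTK and 69.4, 68.7, 74.9, 64.9 and 66.9 CPM after anti-gp120, at a log2 fold change of 0.10 (SE 0.06, adjusted p = 0.332, edgeR). Its core counterpart Rpl7 had 31.8, 26.3, 33.9, 33.6 and 37.5 CPM after anti-MerTK and 36.1, 31.7, 46.2, 33.2 and 37.8 CPM after anti-gp120, at -0.18 (SE 0.11, adjusted p = 0.382, edgeR). All 5 anti-MerTK libraries lay above the anti-gp120 mean for Rpl7l1, and 4 of 5 lay below it for Rpl7.

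Ratios within a library do not depend on library size, so the paralog was set against its core counterpart for the 4 pairs with enough reads. The log2 ratio of Rpl7l1 to Rpl7 was 1.20, 1.46, 1.19, 1.08 and 1.02 in the anti-MerTK libraries and 0.945, 1.116, 0.698, 0.965 and 0.823 in the anti-gp120 libraries. The means differed by 0.28 with a 95% interval of 0.04 to 0.52, and the two-sided exact permutation test over all assignments of the libraries gave p = 0.0238, or 0.0952 after adjustment over the 4 pairs. The log2 ratio of Rps27l to Rps27 averaged 5.17 ± 0.284 after anti-MerTK and 4.81 ± 0.415 after anti-gp120, a difference of 0.36 (exact permutation p = 0.119, adjusted p = 0.238). For Rpl22l1 to Rpl22 the difference was -0.11 with an interval of -0.58 to 0.37 (exact permutation p = 0.659), and for Rpl36al to Rpl36a it was 0.04 with an interval of -0.37 to 0.45 (exact permutation p = 0.802). The smallest p that 5 against 5 libraries allow is 0.00794. Anti-gp120 replicate 2 had the highest ratio of its group in both of the first pairs, 1.116 for Rpl7l1 and 5.488 for Rps27l. Leaving it out therefore widened both differences, and the adjusted p became 0.0476 for each by the exact permutation test. The p-values without other single libraries are not given, so this fit alone is no ground for a difference.

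Rps27 and its relatives were counted very unequally. Rps27l, a target of p53, had 101 RPKM over all libraries, Rps27rt had 25.8 RPKM and Rps27 had 3.45 RPKM. With identical coding sequences, a read inside the coding part of Rps27 or Rps27rt could not be placed uniquely, so these 2 levels are uncertain. Rps27 had 1.49, 1.33, 2.08, 2.02 and 1.87 CPM after anti-MerTK and 2.53, 1.22, 3.20, 1.73 and 2.26 CPM after anti-gp120 (log2 fold change -0.31, SE 0.24). Rps27l had 54.7, 65.2, 65.3, 59.7 and 67.5 CPM after anti-MerTK and 58.3, 54.9, 75.9, 52.4 and 52.0 CPM after anti-gp120 (log2 fold change 0.09, SE 0.11). The highest value of Rps27 and of Rps27l was in anti-gp120 replicate 3.

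Rpl10 and Rpl39, the core counterparts of the testis paralogs, had log2 fold changes of -0.14 (SE 0.12) and -0.22 (SE 0.12). Rpl36al had 2.46 ± 0.175 CPM after anti-MerTK and 2.37 ± 0.486 CPM after anti-gp120, a log2 fold change of 0.05 (SE 0.16), and Rpl36a, also at 0.05 (SE 0.26), rested on 15 to 30 reads. Rpl22, an RNA-binding large-subunit protein, had 148 ± 14.2 CPM after anti-MerTK and 168 ± 17.6 CPM after anti-gp120 (log2 fold change -0.18, SE 0.09, adjusted p = 0.257, edgeR). Its paralog Rpl22l1 had 2.98 ± 1.099 CPM after anti-MerTK and 3.498 ± 0.790 CPM after anti-gp120 (log2 fold change -0.22, SE 0.24). Among the retroposed genes, Rpl32l had 0.771 ± 0.240 CPM after anti-MerTK and 1.09 ± 0.202 CPM after anti-gp120, at -0.49 (SE 0.25, adjusted p = 0.280, edgeR), the lowest estimate of all members. It rested on 18 to 47 reads. Rps27rt, at -0.18 (SE 0.16), and Rpl37rt, at -0.10 (SE 0.07), had groups that overlapped.

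Summed over all 89 genes, the share of reads overlapped between the groups. It was 0.741%, 0.620%, 0.788%, 0.693% and 0.856% in the anti-MerTK libraries and 0.818%, 0.801%, 0.885%, 0.747% and 0.774% in the anti-gp120 libraries. The means were 0.740% ± 0.0898 after anti-MerTK and 0.805% ± 0.0522 after anti-gp120, with the SD over 5 libraries each. The lowest share belonged to anti-MerTK replicate 2 and the highest to anti-gp120 replicate 3, while anti-MerTK replicate 5 lay above 4 of the 5 anti-gp120 libraries.

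The level of the whole group varied between libraries of the same treatment. The median deviation of the members from their own mean over 10 libraries, on the log2 CPM scale, was -0.14, -0.27, 0.04, -0.07 and 0.17 in anti-MerTK replicates 1 to 5 and 0.06, -0.01, 0.27, -0.03 and -0.01 in anti-gp120 replicates 1 to 5. The 2 extreme libraries carried much of the difference between the groups. Without anti-MerTK replicate 2 the members' median log2 fold change was -0.04 with 58 of 87 negative, and without anti-gp120 replicate 3 it was -0.05, also with 58 negative. Without anti-MerTK replicate 5 it was -0.16 with 78 negative. With the mean of the monocyte markers as a covariate it was -0.11, and 0 members passed.

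**Figure D4:**
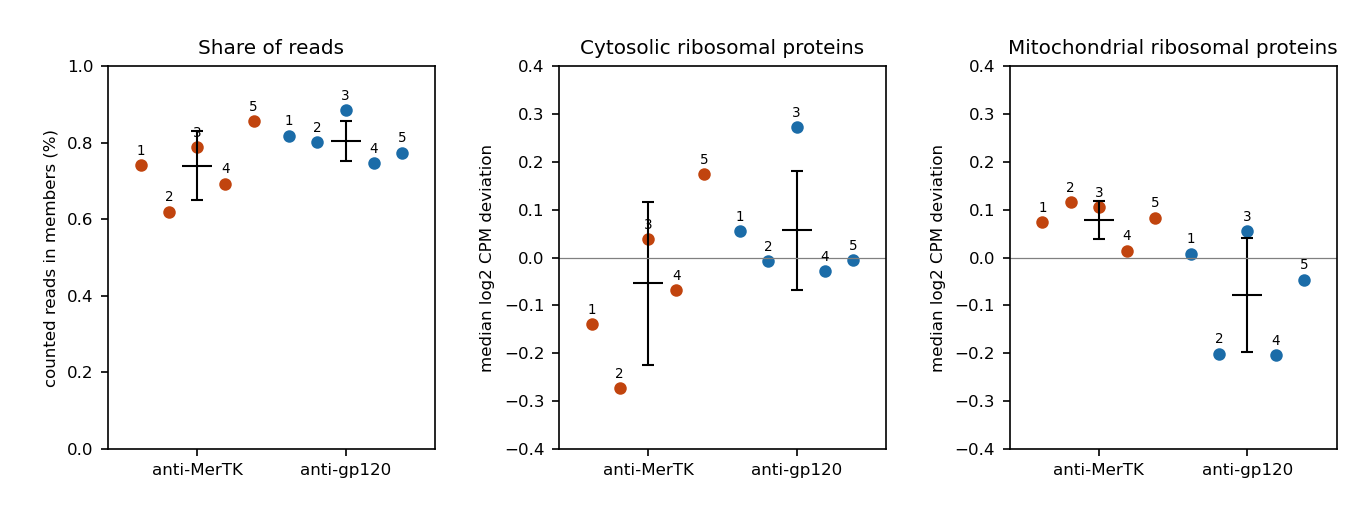
Share of counted reads in the 89 genes (left), and the median log2 CPM deviation of the cytosolic (middle) and mitochondrial (right) ribosomal protein genes, in each library by replicate number, with mean and SD as bars. For the cytosolic genes the groups overlap, with anti-MerTK replicate 2 at -0.27 and anti-gp120 replicate 3 at 0.27.

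The 5′ TOP tract was looked for in the window around the annotated start of each gene (RefSeq, GRCm38). The search was for a C followed by at least 4 bases that are C or T, on the sense strand, starting within 10 bases of the annotated start. Such a tract was found in 41 of 69 members with a window (59.4%), in 33 of 57 core genes (57.9%) and in 5662 of 17001 protein-coding genes (33.3%). The windows below run from 15 bases before to 15 bases from the start, 5′ to 3′, with the tract in capitals. The first 3 hold one, and the last 2 show highly counted genes whose annotated start has none.
Rps6: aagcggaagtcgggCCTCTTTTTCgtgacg
Rpl13a: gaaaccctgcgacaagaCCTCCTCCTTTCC
Rplp2: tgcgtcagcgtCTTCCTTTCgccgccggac
Rps3: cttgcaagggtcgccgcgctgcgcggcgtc
Rplp0: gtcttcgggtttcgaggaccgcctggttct
The windows lie at chr4:86857353-86857382 for Rps6 (minus strand), chr7:45128731-45128760 for Rpl13a (minus), chr7:141447636-141447665 for Rplp2 (plus), chr7:99483695-99483724 for Rps3 (minus) and chr5:115559452-115559481 for Rplp0 (plus). A match is a description of these letters, and its absence may reflect an annotated start that lies a few bases from the one used.

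Genes that work with the ribosomal proteins were counted from lists. Of 25 other mRNAs known to carry a TOP tract, 0 passed the test and 20 were negative, with a median log2 fold change of -0.15. Over all tested genes 1.85% rose, 1.38% fell and 51.0% were negative. At an unadjusted p under 0.05, 9 of the 25 were lower and 0 higher, where 10.8% and 10.1% of all genes were (edgeR). The genes share the same libraries, so these counts are a description. The 3 of smallest p were Eif4b, a helper of the cap-bound helicase, at -0.31 (adjusted p = 0.0603), Eif4a2, a form of that helicase, at -0.23 (adjusted p = 0.0948), and the histone chaperone Nap1l1 at -0.25 (adjusted p = 0.118, all edgeR). The elongation factors Eef1a1 and Eef2 were at -0.20 (SE 0.10) and -0.16 (SE 0.09). Of the ribosomal proteins that carry other names, Rack1, a scaffold on the small subunit, had 1502 ± 129 CPM after anti-MerTK and 1605 ± 129 CPM after anti-gp120 at -0.10 (SE 0.09), and Fau, a gene whose product is a fusion with a ubiquitin-like protein, was at 0.07 (SE 0.25).

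Assembly factors join the proteins to the ribosomal RNA. Of 40 ribosome biogenesis factors 1 rose, 0 fell and 31 were positive, with a median log2 fold change of 0.10. Over all tested genes 1.85% rose, 1.38% fell and 49.0% were positive. Bop1, which processes the RNA of the large subunit, rose to 59.9 ± 4.76 CPM after anti-MerTK, against 48.8 ± 2.55 CPM after anti-gp120, at 0.29 (SE 0.07, adjusted p = 0.0397, edgeR). It passed in 10 of 22 alternatives, with an adjusted p of 0.167 with the monocyte covariate, and missed the threshold without any of anti-MerTK replicates 1 to 4 or anti-gp120 replicates 1 to 4 (0.0524 to 0.108, edgeR). Nop56, a core protein of the nucleolar particles that methylate RNA, was at 0.30 (adjusted p = 0.0666), and Eif6, which keeps the subunits apart, at 0.24 (adjusted p = 0.0782, edgeR). Of 12 tested genes of RNA polymerase I and its factors, 0 passed.

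The mitochondrial ribosome has its own nuclear-encoded proteins. Over all tested genes 1.85% rose, 1.38% fell and 49.0% were positive. Of the 78 tested genes of this list 3 rose, 0 fell and 74 were positive, with a median log2 fold change of 0.16. The 3 were Mrpl38 at 0.42 (SE 0.09, adjusted p = 0.0267), Mrpl4 at 0.33 (SE 0.07, adjusted p = 0.0273) and Mrps28 at 0.34 (SE 0.08, adjusted p = 0.0448, edgeR). Mrpl38 had 24.9, 25.2, 28.1, 23.4 and 23.2 CPM after anti-MerTK and 20.7, 18.2, 17.1, 16.7 and 20.8 CPM after anti-gp120, without overlap. With the monocyte covariate the adjusted p was 0.161 for Mrpl38, 0.183 for Mrpl4 and 0.254 for Mrps28 (edgeR). All 3 also missed the threshold with the length and GC offsets, and when any of anti-MerTK replicates 1, 2 and 3 or anti-gp120 replicates 2 and 4 was left out (0.0576 to 0.122). The difference between the cytosolic and the mitochondrial list was not tested.

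**Figure D5:**
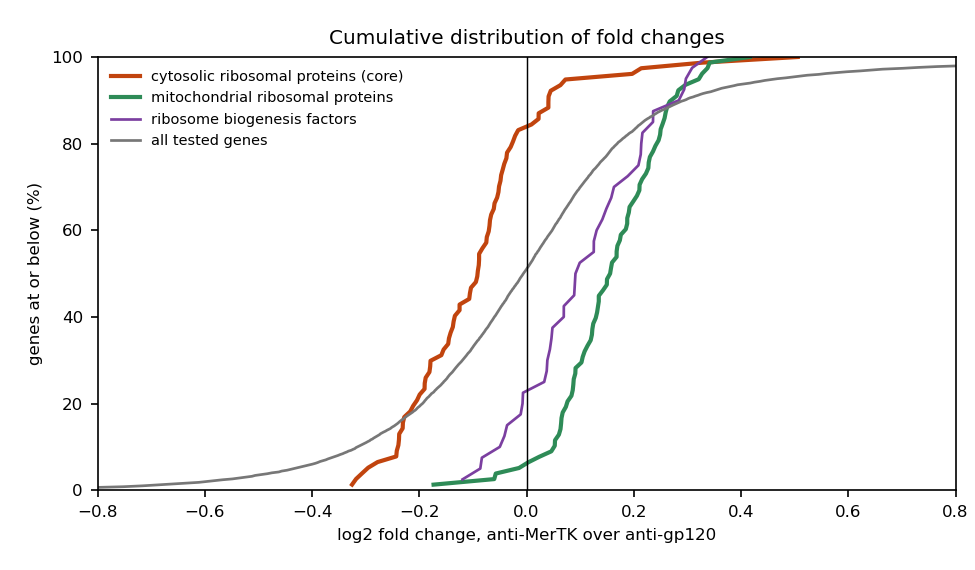
Cumulative distribution of log2 fold changes, anti-MerTK over anti-gp120, for the 77 core cytosolic ribosomal protein genes, 78 mitochondrial ribosomal protein genes, 40 ribosome biogenesis factors and all 13588 tested genes. The cytosolic curve, with a median of -0.09, lies left of that of all genes except in its lower tail, and the mitochondrial curve, with a median of 0.16, lies right of it except at its upper end.

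Among regulators, 1 of 20 genes of the mTORC1 and TOP translation list fell and 0 rose. Of all tested genes 1.38% fell and 1.85% rose. Deptor, an inhibitor bound to mTOR, had 6.49, 4.10, 6.94, 9.15 and 7.77 CPM after anti-MerTK and 9.61, 16.1, 12.8, 16.4 and 12.2 CPM after anti-gp120. The groups did not overlap, and the log2 fold change was -0.96 (SE 0.20, adjusted p = 0.0295, edgeR). The call was lost with the monocyte covariate, at -0.86 (adjusted p = 0.197, edgeR), and without anti-MerTK replicate 1 or 3 or anti-gp120 replicate 2, 3 or 4 (adjusted p of 0.0529 to 0.0820). Mtor itself was at -0.02 (SE 0.11) and Larp1 at 0.17 (SE 0.15). Of 12 tested transcription factors linked to promoters of ribosomal protein genes, Sp1 fell to 52.3 ± 4.02 CPM after anti-MerTK, against 64.9 ± 2.05 CPM after anti-gp120, at -0.31 (SE 0.06, adjusted p = 0.0262, edgeR). Its call was lost with the monocyte covariate, at -0.35 (adjusted p = 0.137), with the length and GC offsets (adjusted p = 0.243), and without anti-MerTK replicate 3 or 4 or anti-gp120 replicate 2 or 4 (0.0532 to 0.0714, edgeR). Myc, which drives ribosome production in many cells, was at -0.19 (SE 0.15, adjusted p = 0.476, edgeR).

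In the p53 arm, which free ribosomal proteins can switch on, 1 of 9 genes rose and 0 fell. Of all tested genes 1.85% rose and 1.38% fell. Bax, which opens the outer membrane of mitochondria, had 126 ± 8.40 CPM after anti-MerTK and 102 ± 6.42 CPM after anti-gp120, at 0.30 (SE 0.07, adjusted p = 0.0341, edgeR). Its adjusted p was 0.184 with the monocyte covariate, 0.234 with the length and GC offsets, and 0.0611 to 0.103 without anti-MerTK replicate 1, 2 or 3 or anti-gp120 replicate 2, 3 or 4 (edgeR). The p53 targets Phlda3 and Bbc3 were at 0.89 (adjusted p = 0.0782) and 0.81 (adjusted p = 0.142), and Cdkn1a at 0.12 (adjusted p = 0.495, edgeR). In the whole list of 9, 6 estimates were positive and 3 negative, the lowest at -0.21. At an unadjusted p under 0.05, 4 were higher and 1 was lower (edgeR). Of 24 genes of translation initiation and its stress kinases, Eif2ak3, the kinase that senses unfolded proteins in the endoplasmic reticulum, fell by 0.38 on the log2 scale (SE 0.08, adjusted p = 0.0266, edgeR), and 0 rose. With the monocyte covariate Eif2ak3 was at -0.39 and missed the threshold (adjusted p = 0.160), as it did without any of anti-MerTK replicates 1 to 4 or anti-gp120 replicate 2 or 4 (0.0515 to 0.0795, edgeR). Eif2ak2, the kinase that senses double-stranded RNA and is induced by interferon, was at 0.51 (SE 0.14, adjusted p = 0.0658, edgeR).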

How the data were processed

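RNA from 5 anti-MerTK and 5 anti-gp120 samples was sequenced, 1 library per sample. Reads were aligned with GSNAP to GRCm38, per the submitters' processing notes; how they were counted, with what read length and whether by strand, is not given in the sources used here. The deposited counts are reads that align uniquely to a gene model, per the file headers. The authors' RPKM values carry a size-factor adjustment, per the file headers, and were used for levels between genes.

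Counts were tested with edgeR 4.0.16 (quasi-likelihood, TMM, filterByExpr, robust, two-sided, Benjamini-Hochberg over 13588 genes, R 4.3.3), with treatment as the only term. CPM values use TMM library sizes. SEs and 95% intervals of fold changes come from the F statistic and are approximate. The 4 paralog ratios were tested by exact permutation (scipy 1.17.1). Their 95% intervals use a t distribution with the variance pooled over the groups. The common dispersion had a square root of 0.159. The fit was also run on counts simulated from its own means and dispersions, which cannot test whether the model suits these libraries. The limit for a count of 0 covers counting error only.

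Of the identifiers, 31049 were named from RefSeq GRCm38.p6 and 78 from GENCODE M21. Pseudogene copies came from BLAST+ 2.17.0, and coding and start sequences from GENCODE M21 and RefSeq. Coordinates are those of GRCm38.

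Members and lists were chosen with earlier results of these data known. Values are given for 28 members by rule: the extreme fold changes and levels, the P stalk, paralogs with their core counterparts, and Rps19bp1. Other members, genes beyond the 3 of smallest p per list, and the genes shown as sequence were chosen after their values were seen. Alternatives were other normalizations, filters, tools and covariates, fits without single libraries, and splits of the members by unique sequence, of which the last was added after seeing the data. Values of some genes are not reported here.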

Additional observations from a re-analysis of the deposited data

Results flagged for a closer look

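In 66 groups of 5 values, 7 held a library that stood apart by Dixon's criterion, which chance alone meets in about 1 of 20 groups. Anti-gp120 replicate 3 was the highest in 5 of them. Rpl22 had 199 CPM there, against 157 to 162 CPM in the other anti-gp120 libraries. Rpl22l1 had 4.88 CPM, against 2.99 to 3.38 CPM. Rps27l had 75.9 CPM, against 52.0 to 58.3 CPM, and Rps4x had 23.1 CPM, against 15.8 to 16.5 CPM. The median log2 deviation of all members in that library was 0.27, against -0.03 to 0.06 in the other anti-gp120 libraries. The genes share the library, so these are not separate observations.

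Rpl36al had 2.76 CPM in anti-MerTK replicate 5, against 2.33 to 2.45 CPM in the other anti-MerTK libraries. The log2 ratio of Rpl36al to Rpl36a was 1.77 in anti-gp120 replicate 4, against 2.12 to 2.26 in the others of its group, and Rpl36a rested on 15 to 30 reads per library.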

How the results depend on the processing

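The members' median log2 fold change stayed negative in all 25 settings tried beside the reported one. It lay between -0.16 and -0.04 when single libraries were left out. DESeq2 and limma-voom each called 1 member higher, and the length and GC offsets called 2 lower; in every other setting, and without any single library, 0 were called. Over all genes the higher calls numbered 457 with 1 surrogate variable, 152 in 8 libraries (without anti-MerTK replicates 2 and 5), 599 with DESeq2, 511 with limma-voom, 11 with the monocyte covariate and 55 to 370 without single libraries. The lower calls numbered 375, 52, 547, 496 and 0 in the same settings, 123 with the length and GC offsets, and 15 to 284 without single libraries. Without single libraries the ratio difference was -0.054 to 0.14 for Rpl36al, -0.24 to 0.056 for Rpl22l1, 0.25 to 0.53 for Rps27l and 0.21 to 0.33 for Rpl7l1. Of the 11 named genes outside the members that passed, Ms4a4c was the sole one to pass in 8 libraries and 0 passed with the monocyte covariate. Plac8 and Ms4a4c are part of that covariate. Over all genes it left 11 higher and 0 lower calls, so a call lost there is not particular to a gene. Signs turned for members near 0 or of few reads. Rpl23a was at 0.46 with the monocyte covariate. Rpl3 was at -0.0081 in 8 libraries, -0.077 with the offsets, -0.022 with limma-voom, -0.012 with the covariate and -0.036 to 0.086 without single libraries. Rpl36a was at -0.051 in 8 libraries, -0.00063 with the offsets and -0.094 to 0.15 without single libraries. Rpl36al was at -0.0091 with the offsets and -0.043 to 0.16 without single libraries. The cause was not tested. No paired analysis was possible because the labels carry no replicate numbers; those used here were assigned in accession order. Counts of uniquely aligned reads limit genes with few unique bases, of which 29 core genes averaged under 200 reads.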
